A study of Mus musculus with 11 samples.

Results

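The MYC, MAX and MXD network is a group of transcription factors that pair with each other and compete for the same DNA. Its 10 genes examined here, Myc, Mycn, Max, Mxd1, Mxd3, Mxd4, Mxi1, Mnt, Mlx and Zbtb17, were chosen by name and found by Ensembl identifier among the 48795 genes of the table. Expression was measured by RNA-seq in 11 libraries of sorted splenic B cells from 8 female C57BL/6 mice of 8 to 12 weeks, all immunized with sheep red blood cells and analysed 10 days later. Myc WT LZ comprised the light zone (LZ) B cells of the germinal center (GC) of 4 mice with unmutated Myc (mice 1 to 4). Myc VD LZ comprised the same gate in 4 mice carrying MYC V394D (mice 5 to 8), and Myc WT MBC comprised the memory B cells (MBCs) of mice 1, 3 and 4 of the first group. LZ cells were sorted as B220+ CD138- IgD- CD38- Fas+ CD86 high CXCR4 low and MBCs as B220+ CD138- IgD- CD38+ CD273+. The labels do not say whether the mutation was on 1 or both alleles, and the Myc VD mice carried another colony name than the Myc WT mice, so genotype and colony cannot be told apart.

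MYC binds DNA as a dimer with MAX, at a short motif called the E-box, and raises transcription there. The MXD proteins (MXD1, MXI1, MXD3 and MXD4) and MNT pair with MAX at the same sites and bring in SIN3 and histone deacetylase complexes that repress, while MLX is a second dimer partner for some of them. MIZ1, encoded by Zbtb17, is a zinc finger activator that MYC can turn into a repressor by binding it. In the germinal center, MYC is induced in LZ B cells that have received T cell help. The valine replaced in V394D lies in the part of MYC that contacts MIZ1, and the study used this mouse to ask what MYC-MIZ1 complexes do in LZ cells and in the choice between a new round of division and the memory fate.

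The codon changed by V394D, 1 of the 439 codons of Myc, lies in exon 3 of 3, at chr15:61989741-61989797 of GRCm38 for the stretch shown, on the plus strand. It is given because it is the only designed difference between the Myc VD and Myc WT LZ cells. In the unmutated coding sequence below, from the GENCODE M21 transcripts, the valine codon is in capitals.

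Myc valine codon: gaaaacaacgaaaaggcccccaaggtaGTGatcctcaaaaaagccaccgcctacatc

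Several of these genes carry the E-box that their own products recognise. RefSeq promoter windows of GRCm38.p6, from 250 bases before to 50 after the start, were matched for 9 of the 10 genes (12 windows); Myc had no entry. CACGTG, which reads the same on both strands, was present in 4 of these 9 genes, Max, Mlx, Mnt and Mxd4 (4 of their 12 windows), and in 7.15% of all 32851 windows. The 4 stretches follow, each on the strand of its gene with CACGTG in capitals. They lie at chr12:76962234-76962263 (minus strand), chr11:101087210-101087289 (plus), chr11:74830761-74830846 (plus) and chr5:34187884-34187960 (minus).

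Max: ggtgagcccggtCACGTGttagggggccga
Mlx: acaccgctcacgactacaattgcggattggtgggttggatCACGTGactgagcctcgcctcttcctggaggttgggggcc
Mnt: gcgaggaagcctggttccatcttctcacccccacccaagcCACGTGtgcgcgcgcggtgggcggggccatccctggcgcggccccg
Mxd4: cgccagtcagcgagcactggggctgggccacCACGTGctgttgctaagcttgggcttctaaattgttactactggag

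The motif began 3 bases before the start in Max, 40 in Mlx, 123 in Mnt and 219 in Mxd4. A match of 6 letters describes the window and does not show binding.

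Values are TPM, transcript abundances scaled for transcript length and for the library total, so levels of different genes can be set side by side. The table holds no counts, so the depth behind each value is unknown. The sorted cells carried the markers of their labels. Summed TPM over 10 memory B cell genes was 44.1 to 59.5 in Myc WT LZ, 19.7 to 50.4 in Myc VD LZ and 759 to 1080 in MBCs, and the sum over 10 LZ and GC genes was 1015 to 1263, 714 to 1036 and 506 to 644. The 3 markers of naive follicular B cells summed to 363 to 367, 289 to 401 and 788 to 834 TPM. Markers of other lineages were present too. The 6 T cell markers summed to at most 20.4 TPM, the 6 myeloid markers to 56.7 to 97.5 TPM in Myc WT LZ, 45.2 to 68.0 in Myc VD LZ and 99.1 to 266 in MBCs (S100a8 and S100a9 at 0 in the last 2 groups), and the 6 erythroid markers reached 6713 TPM in the MBC library of mouse 3 against 7.60 and 53.4 TPM in the other MBC libraries. In LZ cells the erythroid sum was 116 to 226 TPM in Myc WT mice, 343, 410 and 352 TPM in mice 5, 6 and 7 and 71.9 TPM in mouse 8. The 5 plasma cell markers summed to 229 to 381 TPM in Myc WT LZ and 134 to 221 TPM in Myc VD LZ, without overlap, and to 193 to 402 TPM in MBCs. The part of these cells in the results below was not tested except where a value without that library is given. Genes above 0 numbered 15460 to 19537, 13169 to 16421 and 11527 to 16040, and ribosomal RNA took 35.7 to 44.5%, 44.1 to 61.3% and 36.1 to 37.5% of TPM in Myc WT LZ, Myc VD LZ and MBCs. In bulk RNA, fewer cells that express a gene and less RNA of it per cell cannot be told apart.

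In Myc WT LZ cells the network was dominated by Max, Myc and Mxd4. The means were 85.5 ± 18.9 TPM for Max, 36.0 ± 6.43 for Myc, 32.7 ± 3.41 for Mxd4, 11.9 ± 2.48 for Mxd3, 10.1 ± 1.31 for Mnt, 9.41 ± 2.39 for Mlx, 3.94 ± 1.17 for Zbtb17, 2.32 ± 0.390 for Mxd1 and 0.428 ± 0.395 for Mxi1 (SD, n = 4). Neighbours in this order that overlapped were Myc with Mxd4, then Mxd3, Mnt and Mlx among themselves, and Zbtb17 with Mxd1. The range of Max lay above that of Myc in both Myc WT groups, whereas in Myc VD LZ the highest Myc library, at 66.79 TPM, exceeded the lowest Max library, at 65.55 TPM. Max, Myc and Mxd4 held the first 3 ranks in all 3 groups, and the gene that changed rank most was Mxd3, at rank 4 in both LZ groups and rank 9 of 10 in MBCs.

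**Figure D1:**
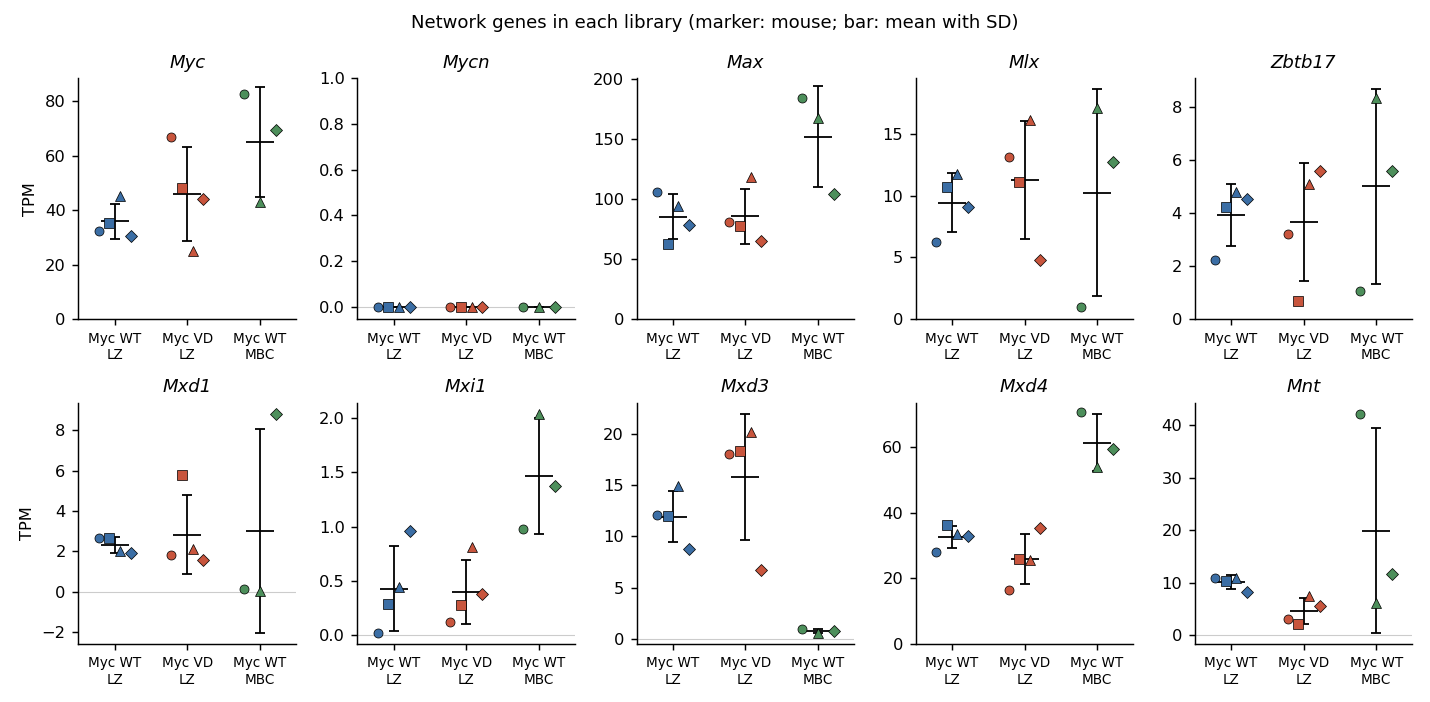
TPM of each of the 10 network genes (vertical axes, linear, each panel with its own range) in the 4 Myc WT LZ, 4 Myc VD LZ and 3 Myc WT MBC libraries; each point is 1 library, the marker gives the mouse (circle, mouse 1 or 5; square, 2 or 6; triangle, 3 or 7; diamond, 4 or 8), and black bars are the mean with its SD. Mxd3 is between 0.61 and 0.98 TPM in MBCs against 6.68 to 20.16 TPM in LZ cells, and Mxd4 is between 54.09 and 70.95 TPM in MBCs against 16.57 to 36.34 TPM in LZ cells.

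The effect of the mutation was read from Myc VD LZ against Myc WT LZ. None of the 8 network genes that averaged 1 TPM or more passed limma's test at an adjusted p of 0.05, and 0.0466% of the 12869 genes tested did so. Mnt came nearest. Among these 8 genes, 1 (Mnt) had an unadjusted p under 0.05, against 16.9% of all genes. TPM values were lower in Myc VD LZ across the table, with a median log2 difference of -0.31 over all genes, so the network's median of 0.05 stood 0.36 above it. After rescaling by median ratios, the 2 medians were 0.34 for the network and -0.01 for all genes.

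Myc itself, on chromosome 15 from 61985391 to 61990374, spread widely among the mutant mice. The LZ libraries of mice 1 to 4 held 32.56, 35.48, 45.16 and 30.7 TPM, and those of mice 5 to 8 held 66.79, 48.21, 24.94 and 44.29 TPM. Mutant mice thus had both the lowest and the highest LZ values. The log2 difference was 0.28 (95% confidence interval -0.36 to 0.93, adjusted p = 0.645), and it ran from 0.08 without mouse 5 to 0.54 without mouse 7. The value depended on scaling: it was 0.62 after median-ratio rescaling (SE 0.25, adjusted p = 0.376) and 0.63 without ribosomal RNA, mitochondrial and immunoglobulin genes (adjusted p = 0.421). The gene-level TPM counts mutated and unmutated transcripts together. Mycn, the paralog used mainly in embryonic and neural cells, was listed at 0 in all 11 libraries.

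Max, the obligate partner of MYC, was at 106.24, 62.94, 94.54 and 78.21 TPM in Myc WT LZ and at 81.21, 77.61, 118.98 and 65.55 TPM in Myc VD LZ. The means of 85.5 and 85.8 TPM were nearly equal, with a log2 difference of 0.00 (95% confidence interval -0.54 to 0.53, adjusted p = 0.994). Relative to the shifted median of all genes this difference was 0.31, and after median-ratio rescaling or removal of ribosomal RNA, mitochondrial and immunoglobulin genes it was 0.34 or 0.35, again without a call. Max overlaps Gm47218 on the same strand, so reads shared by the pair could be counted for either.

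Mnt, the most widely expressed of the MAX-binding repressors, had lower TPM in every mutant library than in every wild-type library, an order that did not survive rescaling. It was at 10.94, 10.29, 10.95 and 8.18 TPM in Myc WT LZ. In Myc VD LZ it was at 3.13, 2.01, 7.5 and 5.59 TPM, so the mean of 4.56 ± 2.47 was 0.452 times the Myc WT mean of 10.1 ± 1.31 (SD, n = 4 each). Groups that did not overlap, with the mutant lower, were found for 9.16% of all genes tested. The log2 difference was -1.10 (SE 0.37, 95% confidence interval -1.92 to -0.28), and the exact two-sided permutation p was 0.0286, the smallest that 4 against 4 mice can give. Adjusted over all genes, limma's p was 0.185, so Mnt was not called. After median-ratio rescaling the groups overlapped, with mouse 7 at 8.47 against 8.26 in wild-type mouse 4, and the difference was -0.80 (adjusted p = 0.447). Without ribosomal RNA, mitochondrial and immunoglobulin genes it was -0.87 (adjusted p = 0.510). Adjusted p stayed above 0.05 in all 15 alternatives run for this gene.

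The 4 MXD genes all overlapped between the LZ groups. Mxd3, which is typical of dividing cells, was at 12.1, 11.96, 14.87 and 8.81 TPM in Myc WT LZ and at 18.08, 18.33, 20.16 and 6.68 TPM in Myc VD LZ (log2 difference 0.30, 95% confidence interval -0.49 to 1.08, adjusted p = 0.698). The libraries of mice 5, 6 and 7 exceeded all wild-type libraries, whereas that of mouse 8 was the lowest of the 8. Mxd4, which in other tissues goes with differentiation, was at 28.15, 36.34, 33.62 and 32.85 TPM in Myc WT LZ and at 16.57, 26.03, 25.67 and 35.28 TPM in Myc VD LZ (log2 difference -0.37, 95% confidence interval -0.94 to 0.20, adjusted p = 0.495). On unscaled TPM, mice 5, 6 and 7 were below all wild-type libraries and mouse 8 was within their range. After median-ratio rescaling mice 6 and 7 were within that range and mouse 8 above it, and the difference was -0.033 (-0.031 without ribosomal RNA, mitochondrial and immunoglobulin genes). The Mxd3 difference was 0.61 and 0.64 under the same scalings, without a call.

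Mxd1, the founding repressor of the family, was at 2.65, 2.65, 2.04 and 1.92 TPM in Myc WT LZ and at 1.85, 5.77, 2.14 and 1.59 TPM in Myc VD LZ. Only the library of mouse 6 stood above the wild-type range, and without it the log2 difference moved from 0.10 to -0.21. Mxd1 overlaps Gm44292 on its own strand. Mxi1, another MXD repressor, was under 1 TPM in all 8 LZ libraries, at 0.02, 0.29, 0.44 and 0.96 TPM and at 0.12, 0.28, 0.81 and 0.38 TPM, and was not tested.

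Mlx, the alternative dimer partner, was at 6.21, 10.66, 11.7 and 9.06 TPM in Myc WT LZ and at 13.11, 11.1, 16.07 and 4.8 TPM in Myc VD LZ (log2 difference 0.16, 95% confidence interval -0.66 to 0.98, adjusted p = 0.856). Zbtb17, which encodes the MIZ1 protein that the mutation keeps from binding MYC, was at 2.22, 4.22, 4.78 and 4.55 TPM in Myc WT LZ and at 3.22, 0.7, 5.11 and 5.6 TPM in Myc VD LZ. Its log2 difference was -0.22 (95% confidence interval -1.27 to 0.82, adjusted p = 0.842), and it was 0.20 without mouse 6, the library with the lowest value, and 0.037 after median-ratio rescaling. Neither gene of the MYC-MIZ1 pair was thus called between genotypes under any scaling.

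The second comparison set MBCs against the LZ cells of Myc WT mice, as LZ cells can leave the germinal center for the memory fate. Values after ± are SDs, with n = 3 for MBCs and n = 4 for each LZ group. Of the 8 network genes tested, 1 was called, Mxd3, which fell, against 9.20% of the 13245 genes tested. The genes with unadjusted p under 0.05 were 4 of 8 (Myc, Max, Mxd3 and Mxd4), where 27.1% of all genes passed. The network's median log2 difference was 0.28 and that of all genes -0.14, both almost unmoved by median-ratio rescaling (0.30 and -0.14).

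Mxd3 was at 0.98, 0.61 and 0.75 TPM in the MBCs of mice 1, 3 and 4, below the lowest LZ library of either genotype. Groups that did not overlap, with MBCs lower, made up 14.4% of all genes. The MBC mean of 0.780 ± 0.187 (SD, n = 3) was 0.0654 times the Myc WT LZ mean of 11.9 ± 2.48 (SD, n = 4). On the log2(TPM + 1) scale, which understates changes at low levels, the difference was -2.85 (SE 0.45, 95% confidence interval -3.86 to -1.83, adjusted p = 0.00815 from limma). The exact permutation p was 0.0286, the smallest possible for 3 against 4. With the mouse as a block, which leaves out the LZ library of mouse 2 because it has no MBC partner, the difference was -2.84 and the adjusted p = 0.133. The call was also lost without the LZ library of mouse 2 (adjusted p = 0.0509) or of mouse 3 (adjusted p = 0.0510), with differences of -2.84 and -2.74. Proliferation genes were lower too: summed over 15 such genes, TPM was 2503, 2217, 2989 and 1601 in Myc WT LZ and 447, 497 and 728 in MBCs.

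Mxd4 differed in the opposite direction, without a call. In MBCs it was at 70.95, 54.09 and 59.5 TPM, each above the highest LZ library of either genotype, with a mean of 61.5 ± 8.61 TPM (SD, n = 3) that was 1.88 times the Myc WT LZ mean of 32.7 ± 3.41. Groups that did not overlap, with MBCs higher, made up 11.8% of all genes. The log2 difference was 0.89 (SE 0.26, 95% confidence interval 0.29 to 1.48, permutation p = 0.0286), and the adjusted p of 0.0682 missed the threshold. Without the MBC library of mouse 3, the one with the high erythroid sum, it passed (0.97, adjusted p = 0.0403). Without that of mouse 1 the difference was 0.78, and Mxd4 was not called in the other 14 alternatives.

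The balance of the 2 MXD genes can be read inside each library, where scaling cancels. The log2 ratio of Mxd3 to Mxd4 was -1.22, -1.60, -1.18 and -1.90 in Myc WT LZ, 0.13, -0.51, -0.35 and -2.40 in Myc VD LZ, and -6.18, -6.47 and -6.31 in MBCs. Mxd3 thus made up 16.7 to 24.0% of the summed MXD and MNT TPM in Myc WT LZ, 13.5 to 45.5% in Myc VD LZ and 0.851 to 0.971% in MBCs. In 3 of the 4 mutant mice the ratio lay above the wild-type range and in mouse 8 below it. Mnt made up 15.5 to 20.3%, 3.83 to 13.3% and 9.57 to 36.6% in the same order, so its share in the mutant LZ libraries also lay below the wild-type range.

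**Figure D2:**
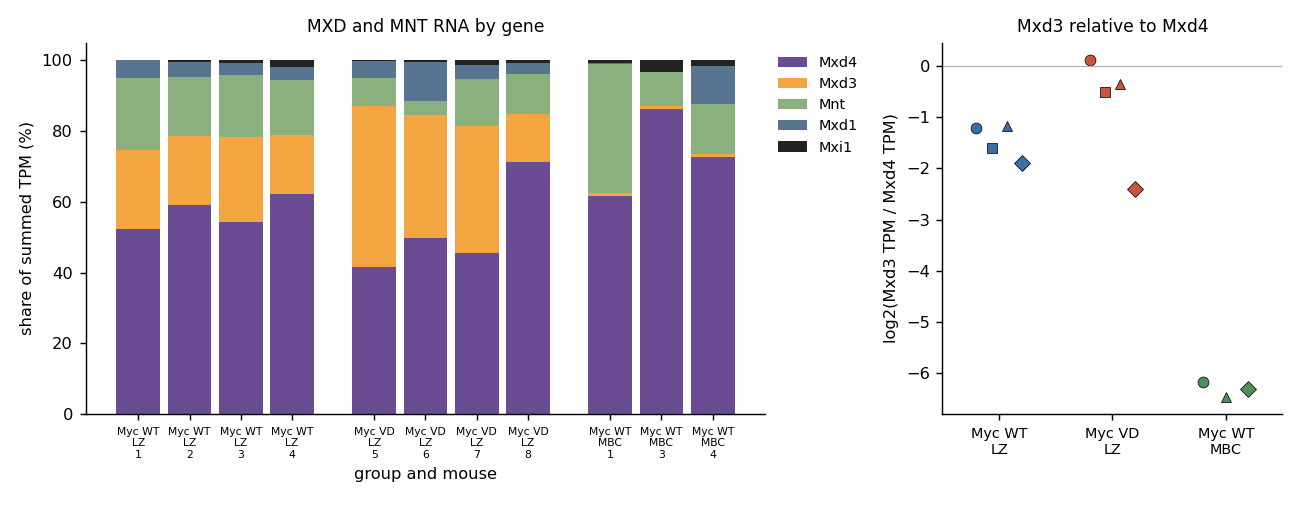
Left, share of the summed TPM of Mxd4, Mxd3, Mnt, Mxd1 and Mxi1 (percent, linear axis) taken by each gene in each of the 11 libraries, labelled by group and mouse; right, log2 ratio of Mxd3 to Mxd4 TPM in the same libraries, 1 point each. Mxd3 takes under 1% in every MBC library, and its ratio to Mxd4 lies between -6.47 and -6.18 there against -2.40 to 0.13 in LZ cells.

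Mxi1 was low in all cells but highest in MBCs, at 0.98, 2.04 and 1.37 TPM against at most 0.96 TPM in Myc WT LZ. Its mean of 1.46 ± 0.536 was 3.42 times that of Myc WT LZ, 0.428 ± 0.395, on values close to 0. It fell under the filter of 1 TPM. The permutation p was 0.0571, and fitted without the filter the difference was 0.80 with an adjusted p of 0.261.

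Mxd1 differed among the MBC libraries more than between the cell types. It was at 0.14 and 0.06 TPM in mice 1 and 3 and at 8.83 TPM in mouse 4, so 2 libraries lay below and 1 above the LZ range of 1.92 to 2.65 TPM. The log2 difference was -0.53 (SE 0.80, adjusted p = 0.710). Without mouse 4 it was -1.58 and passed (adjusted p = 0.0405), and without mouse 3 it was 0.022, so no direction can be given.

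Myc was not lower in MBCs. It was at 82.86, 43.18 and 69.66 TPM, with 2 libraries above all wild-type LZ libraries and that of mouse 3 inside their range. The mean of 65.2 ± 20.2 was 1.81 times that of LZ cells, with a log2 difference of 0.81 (SE 0.31, 95% confidence interval 0.09 to 1.52, adjusted p = 0.139, permutation p = 0.0571). Without mouse 3 it was 1.07 and passed (adjusted p = 0.0364), whereas without the MBC library of mouse 1 it was 0.61. Myc was not called in the other 14 alternatives. In this memory gate, therefore, a higher Myc mean stood beside proliferation sums of 447 to 728 TPM.

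Max was at 184.13, 167.68 and 104.73 TPM in MBCs, with mouse 4 just inside the LZ range that ended at 106.24 TPM. The mean was 152 ± 41.9 TPM, 1.78 times that of Myc WT LZ, and the log2 difference was 0.81 (SE 0.29, 95% confidence interval 0.15 to 1.47, adjusted p = 0.114). Without mouse 4 it was 1.06 and passed (adjusted p = 0.0370), whereas without the MBC library of mouse 1 it was 0.65. Max was not called in the other 14 alternatives. The ratio of Max to the summed TPM of Myc, MXD and MNT was 0.649 to 1.23 in Myc WT LZ, 0.699 to 1.46 in Myc VD LZ and 0.691 to 1.58 in MBCs, so the groups overlapped in how much Max they had per partner.

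Mnt, Mlx and Zbtb17 depended on single MBC libraries. Mnt was at 42.15, 6.01 and 11.53 TPM in mice 1, 3 and 4 (log2 difference 0.50, SE 0.60, adjusted p = 0.635), and without mouse 1 the difference was -0.23. Mlx was at 0.96, 17.07 and 12.69 TPM (-0.37, SE 0.76, adjusted p = 0.792), and without mouse 1 it was 0.63. Zbtb17 was at 1.08, 8.35 and 5.59 TPM (0.07, SE 0.62, adjusted p = 0.960), and without mouse 3 it was -0.38. The MBC library of mouse 1 was the highest of the 11 for Mnt, Mxd4, Myc and Max and the lowest for Mlx.

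**Figure D3:**
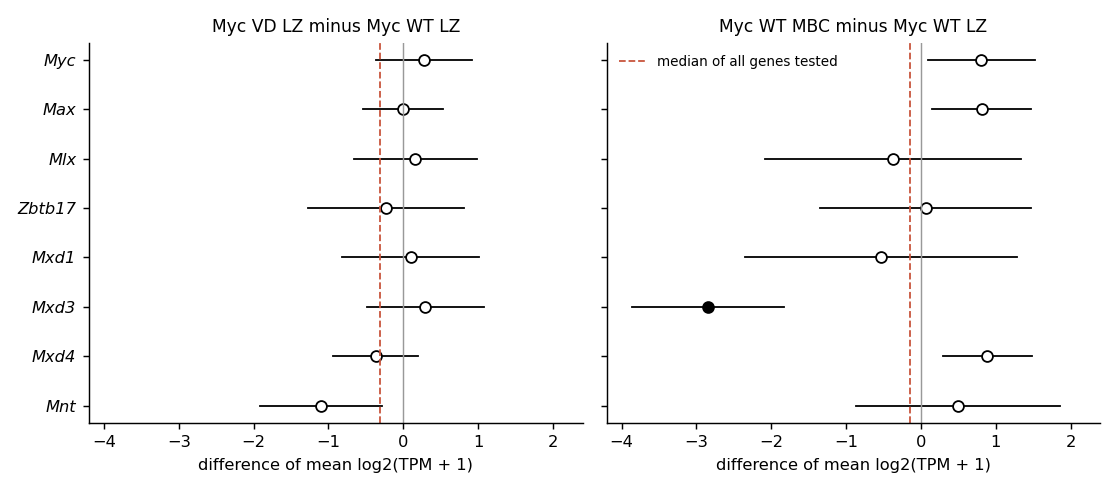
Difference of mean log2(TPM + 1) of the 8 tested network genes, Myc VD LZ minus Myc WT LZ (left, 4 against 4 mice) and Myc WT MBC minus Myc WT LZ (right, 3 against 4 libraries); horizontal lines are 95% confidence intervals from limma, filled points passed the adjusted threshold, and the dashed line is the median of all genes tested. Mxd3 in MBCs, at -2.85, is the filled point, and Mnt in Myc VD LZ, at -1.10, has an interval that stays below 0.

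Myc was also set against its antagonists inside each library. The log2 ratio of Myc to the summed MXD and MNT TPM averaged -0.69 in Myc WT LZ (-0.79 to -0.46), -0.18 in Myc VD LZ (-1.17 to 0.75) and -0.42 in MBCs (-0.54 to -0.23). The MBC and wild-type ranges overlapped, and the mutant range enclosed both. Repressor RNA exceeded Myc RNA in all 7 Myc WT libraries and in 3 of the 4 Myc VD libraries, the exception being mouse 5. Left to the MXD genes alone, without Mnt, the means were -0.41, -0.04 and -0.08.

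Against Myc VD LZ, the MBCs, which share their libraries with the comparison above, gave 1 call among the 8 network genes, again Mxd3, where 3.88% of 13131 genes were called. Mxd3 was at 0.780 TPM in MBCs against 15.8 ± 6.16 in Myc VD LZ (log2 difference -3.14, SE 0.65, adjusted p = 0.0235). The call was lost without mouse 5, 6 or 7 (adjusted p = 0.0846, 0.0856 and 0.106) and with no filter on low genes (0.0700). Mxd4 in MBCs lay above all Myc VD LZ libraries, as did 12.5% of all genes (log2 difference 1.25, SE 0.39, adjusted p = 0.108). It passed when all 3 groups shared 1 fit (adjusted p = 0.0185) and in none of the other 13 alternatives. The other log2 differences were 0.81 for Max (adjusted p = 0.215), 0.52 for Myc (0.538), 1.60 for Mnt (0.271, and 0.87 without MBC mouse 1), -0.63 for Mxd1 (0.746), -0.54 for Mlx (0.762) and 0.29 for Zbtb17 (0.883). Leaving out 1 library gave 0.26 to 0.79 for Myc and -1.69 to -0.080 for Mxd1.

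Of 6 further genes of the wider network, 4 passed the filter. Mga encodes a large MAX-binding repressor with a T-box, Mlxip a glucose-sensing partner of MLX, and Mycbp and Mycbp2 are a small MYC-binding protein and a large ubiquitin ligase named for binding MYC. Mycl was at most 0.48 TPM, and Mlxipl, the hepatic partner of MLX, at most 0.19 TPM.

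Mga was lowest in Myc WT LZ and highest on average in MBCs, without a call. It was at 52.39, 55.24, 63.59 and 57.74 TPM in Myc WT LZ, at 71.81, 73.36, 103.95 and 79.56 TPM in Myc VD LZ and at 250.92, 98.68 and 82.82 TPM in MBCs. Every mutant library exceeded every wild-type LZ library, a pattern in that direction shown by 0.816% of all genes. That share was counted on unscaled TPM, where values were lower in Myc VD LZ across the table (median log2 difference -0.31). After median-ratio rescaling Mga was at 46.7 to 58.3 in Myc WT LZ and 66.8 to 117 in Myc VD LZ. The share of all genes was not counted on that scale. On unscaled TPM the log2 difference was 0.50 (SE 0.20, 95% confidence interval 0.06 to 0.94, adjusted p = 0.242, permutation p = 0.0286). For MBCs against Myc WT LZ it was 1.14 (SE 0.38, adjusted p = 0.0922), again without overlap.

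Mycbp2 was higher in MBCs, at 269.62, 96.61 and 235.99 TPM against 53.52 to 74.47 TPM in Myc WT LZ (log2 difference 1.49, SE 0.36, adjusted p = 0.0369), where 4.17% of all genes were called higher and 5.04% lower. Mycbp was lower, at 19.87, 5.11 and 12.77 TPM against 30.32 to 43.56 TPM (-1.70, SE 0.45, adjusted p = 0.0484). Both calls were lost with the mouse as a block (adjusted p = 0.111 for Mycbp2 and 0.215 for Mycbp) and without any 1 of the 4 LZ libraries, and that of Mycbp2 also without the MBC library of mouse 1 or 4 (0.0811 and 0.0650). With no filter the values were 0.0820 for Mycbp2 and 0.0892 for Mycbp, and with no trend 0.0763 and 0.0661. With a pseudocount of 0.1 the call of Mycbp was lost (adjusted p = 0.0595) and that of Mycbp2 held (0.0438). Mlxip was at 60.4, 29.63 and 32.91 TPM in MBCs against 23.05 to 27.16 TPM in Myc WT LZ (0.65, adjusted p = 0.250). In Myc VD LZ, Mycbp was at 47.46, 25.57, 13.08 and 13.09 TPM (-0.80 against Myc WT LZ, adjusted p = 0.309), Mlxip at 17.71 to 28.49 TPM and Mycbp2 at 40.57 to 72.47 TPM. Against Myc VD LZ, Mycbp2 in MBCs was called as well (1.67, adjusted p = 0.0443), where 3.88% of all genes were called. This call was lost without any 1 of the 4 mutant libraries, without the MBC library of mouse 1 or 4, and after rescaling (1.37, adjusted p = 0.0536). It was also lost with a pseudocount of 0.1 (adjusted p = 0.0565), with no filter (0.110) and with no trend (0.145). Without ribosomal RNA, mitochondrial and immunoglobulin genes it was lost too (0.0933).

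**Figure D4:**
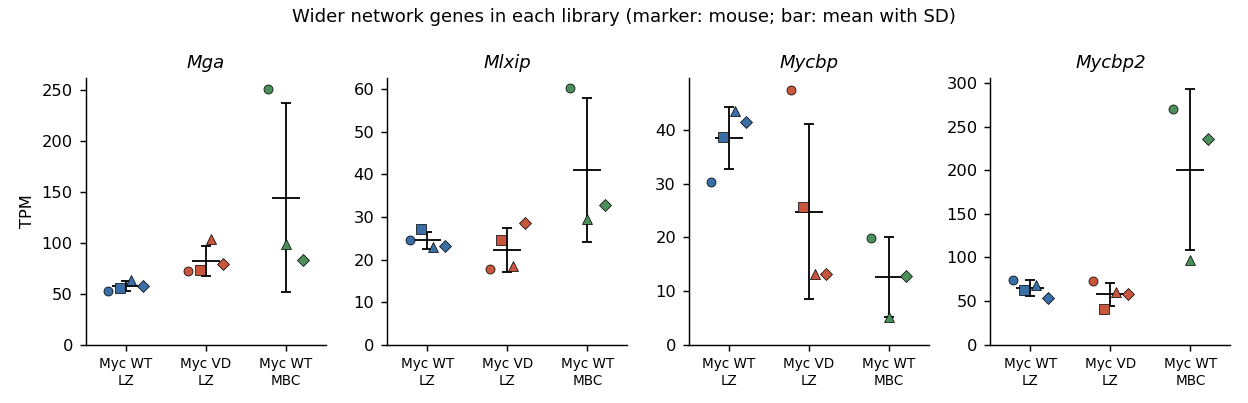
TPM (vertical axes, linear, each panel with its own range) of 4 wider network genes in the 4 Myc WT LZ, 4 Myc VD LZ and 3 Myc WT MBC libraries; points are libraries with markers by mouse (circle, mouse 1 or 5; square, 2 or 6; triangle, 3 or 7; diamond, 4 or 8), and bars are the mean with its SD. Mga is at 71.81 TPM or more in every Myc VD LZ library and at most 63.59 TPM in every Myc WT LZ library, and Mycbp2 is at 96.61 TPM or more in every MBC library.

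The proteins that carry out the network's work were examined as lists. In Myc VD LZ against Myc WT LZ no gene was called in any of them. Of 30 MYC target genes, which include genes of ribosome assembly, nucleotide synthesis, protein folding and the cell cycle, 28 were lower and 2 higher, with a median of -0.43 that stood 0.12 below the median of all genes, where 26.3% were higher. The lowest were Hspe1, a mitochondrial chaperonin (-1.20, adjusted p = 0.0801; called without mouse 5, at -1.12 and 0.0447), and Wdr74, a ribosome assembly factor (-1.05, 0.226). The highest were Cad, the first enzyme of pyrimidine synthesis (0.70, 0.279), and Nop56 (0.01, 0.990). The rescaled median was -0.08 against -0.01 for all genes. The 15 proliferation genes had a median of -0.55 (-0.21 after rescaling), from Mcm3 (-0.66) and Ccnb1 (-0.65) to Plk1 (-0.17) and Mki67 (0.15), and their summed TPM in Myc VD LZ was 2450, 1963, 1529 and 1345.

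The machinery of activation and repression held no call between genotypes, and the medians depended on scaling, since that of all genes was -0.31 on TPM and -0.01 rescaled. The 14 MYC coactivators had a median of -0.06 (0.28 rescaled), between Smarcb1 (-0.75) or Paf1 (-0.74) and Kat2a (0.46). The 14 corepressors recruited by MXD and MNT had a median of -0.33 (0.0047 rescaled), between Sap30 (-1.25) or Rbbp7 (-0.67) and values such as that of Sin3a (0.21). The 17 genes of MYC protein turnover had a median of -0.40 (-0.10 rescaled), between Aurka (-0.79) or Stub1 (-0.75) and Gsk3a (0.33) or Trim32 (0.69). Of 7 MIZ1 target genes named from textbook knowledge, Mxd4 among them, 5 were tested, with a median of -0.37 (-0.033 rescaled). They ran from Cdkn1a, a cell cycle inhibitor (-0.92, adjusted p = 0.539), and Vamp4, a vesicle fusion protein (-0.85, 0.286), to Ambra1 (0.01) and Bcl2 (0.40, 0.720).

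In MBCs against Myc WT LZ the proliferation list moved most. All 15 genes were lower and 13 were called, with a median of -2.11, from Tyms, the enzyme that makes thymidylate (-5.26, adjusted p = 0.011), and Birc5 (-3.89, 0.0261) to Pcna (-1.73, 0.00285) and Aurkb (-1.57, 0.0292). Genes called lower made up 5.04% of all genes. The other genes called were Mki67, Top2a, Cdk1, Ccnb1, Bub1, Plk1, Mcm2, Mcm5 and Rrm2. The count was 6 with the mouse as a block, 6 with no filter, 9 with no trend, and 5, 4 and 4 without the LZ library of mouse 1, 2 or 3. The sum of 3 dark zone markers (Cxcr4, Foxo1 and Ccnb1, which is also in the proliferation list) was 107 to 182 TPM in the MBCs, 144 to 278 TPM in Myc WT LZ and 109 to 252 TPM in Myc VD LZ, and these ranges overlap; their part in the proliferation and Mxd3 values was not tested.

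Of the 30 MYC target genes, 26 were lower in MBCs, where 44.7% of all genes were higher, and the median was -0.66. The 3 called were Nme2 (-2.07, adjusted p = 0.0191), a nucleoside kinase, Cdk4 (-1.88, 0.0174), the G1 cyclin-dependent kinase, and Hspe1 (-1.61, 0.0265). Of all genes, 5.04% were called lower and 9.20% in either direction. The lowest differences were in Wdr74 (-2.67, 0.101) and Mrto4 (-2.47, 0.118), and the highest in Wdr43 (0.43) and Cad (0.44). None of the 3 calls held with the mouse as a block (adjusted p = 0.0729, 0.0870 and 0.102), 0 were left without LZ mouse 2 or 3, and 1 without LZ mouse 1 or 4.

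**Figure D5:**
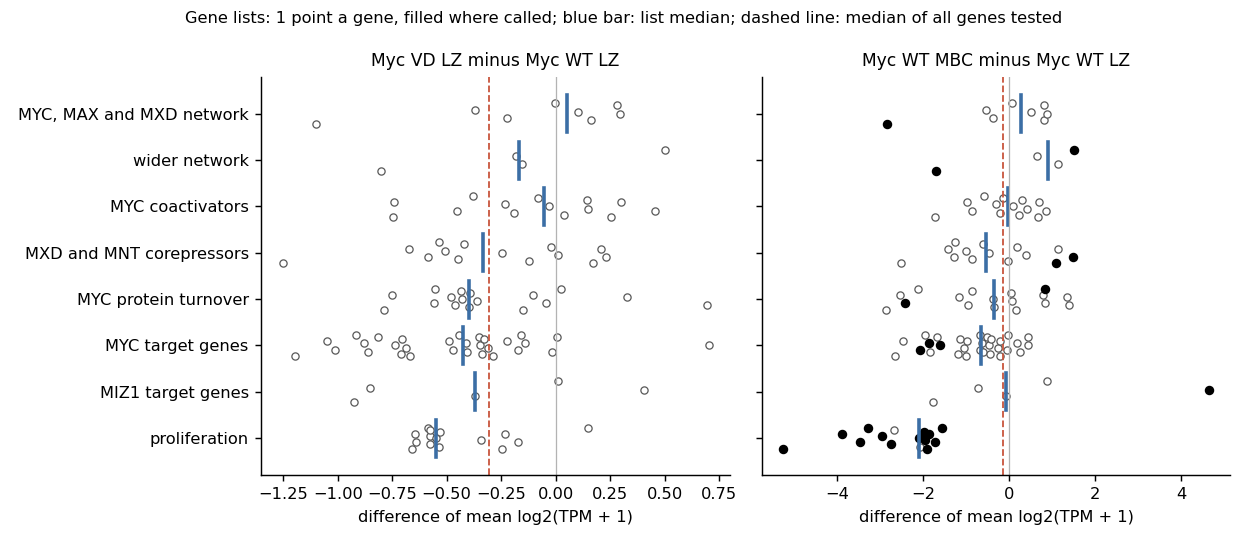
Difference of mean log2(TPM + 1) for each tested gene of 8 lists, Myc VD LZ minus Myc WT LZ (left) and Myc WT MBC minus Myc WT LZ (right); each point is a gene, filled where it passed the adjusted threshold, blue bars are list medians and the dashed line is the median of all genes tested. On the right, 13 of 15 proliferation genes are filled and their median is -2.11; on the left no point is filled.

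Of the corepressors, Arid4b (1.49, adjusted p = 0.0374) and Ncor1 (1.09, 0.012), a scaffold for histone deacetylases, were called higher in MBCs, a call made for 4.17% of all genes, while Sap30 (-2.52, 0.0546) and Ing2 (-1.44, 0.287) had the lowest values. The list's median was -0.54, so these 2 genes went against most of it. In the turnover list, the ubiquitin ligase Huwe1 was called higher (0.84, 0.0292), with Skp2 (-2.86, 0.0552) and Stub1 (-2.53, 0.0862) lowest and Gsk3a (1.34) and Trim32 (1.38) highest. With the mouse as a block none of these 3 calls held (adjusted p = 0.118 for Ncor1, 0.132 for Arid4b and 0.213 for Huwe1), and without LZ mouse 2 neither list had a call. All 3 were also lost with no trend (0.0703, 0.0699 and 0.131), and those of Arid4b and Huwe1 without any 1 of the 4 LZ libraries. The call of Arid4b was lost as well with no filter (0.0745) and without the MBC library of mouse 1 (0.0624). No coactivator was called. They ran from Ruvbl1 (-1.72, 0.122) and Kat5 (-0.98) to Trrap (0.69, 0.119) and Paf1 (0.84, 0.167), with 4 of 14 at an unadjusted p under 0.05, where 27.1% of all genes passed. Bcl2, the survival factor and the 1 MIZ1 list gene called, was at a mean of 62.7 TPM in MBCs against 1.41 in Myc WT LZ (4.65, adjusted p = 0.00149, and 0.0138 with the mouse as a block). Cdkn1a (-1.78, 0.158) and Vamp4 (-0.72, 0.463) had the lowest values in that list.

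Against Myc VD LZ, the MBCs had 5 of 15 proliferation genes called lower (Mki67, Top2a, Plk1, Birc5 and Tyms, median -2.21, where 1.36% of all genes were called lower), Bcl2 called higher (4.24, adjusted p = 0.00625) and no call among coactivators, corepressors, turnover genes or the 29 MYC target genes tested (medians -0.01, -0.34, 0.05 and -0.37, against 0.16 for all genes). The ends of these lists were Ruvbl1 (-1.64) and Paf1 (1.58), Sap30 (-1.27) and Arid4b (1.47), Skp2 (-2.30) and Usp28 (1.19), and Mrto4 (-2.25) and Wdr43 (1.11). The count of proliferation genes called lower depended on the setting. It was 13 after the median-of-ratios rescaling, 12 without rRNA, mitochondrial and immunoglobulin genes, 12 with all 3 groups in 1 fit, 3 with a pseudocount of 0.1, 2 with no trend and 1 with no filter. It was 2, 1, 3 and 3 without the Myc VD LZ library of mouse 5, 6, 7 or 8, and 5, 4 and 7 without the MBC library of mouse 1, 3 or 4.

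The genes most like each member across the 11 libraries were sought by Pearson's r of log2(TPM + 1) among 8007 protein-coding genes averaging 5 TPM or more. This is a description, since the libraries fall into 3 groups and share mice. Mxd3 was closest to Hist1h4j (0.975), Cdkn3 (0.974) and H2afx (0.967), which are a histone, a cell cycle phosphatase and another histone. Mxd4 was closest to Acap1 (0.951), Kdm3a (0.947) and Gimap3 (0.947), Gimap3 being a lymphocyte survival GTPase. For Myc these were Gon4l (0.940), Ppp1r12a (0.935) and Ankrd12 (0.924), and for Max they were Gne (0.936), Taf15 (0.931) and Ago1 (0.930). Mnt was closest to Sde2 (0.970), Zfand3 (0.948) and Zfp429 (0.939), Mlx to Kctd9 (0.941), 1700088E04Rik (0.931) and Anapc13 (0.929), Zbtb17 to Rfxank (0.938), Tamm41 (0.910) and Mcur1 (0.907), and Mxd1 to Pygb (0.903), Larp1b (0.903) and Cby1 (0.901).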

How the data were processed

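Per the labels, RNA of sorted splenic B cells was amplified with a Nugen cDNA kit and sequenced on Illumina HiSeq. The authors aligned reads with STAR 2.5.2a and estimated TPM with RSEM 1.3.0 on GRCm38, in strand-specific mode, and the deposited TPM values are used here as given; the submitters' processing notes also name DESeq2 1.18.1, whose output is not used. TPM holds no counts, so the depth is unknown and a count test could not be run. Symbols and positions come from GENCODE M21 (48435 of 48795 identifiers matched).

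Groups were compared 2 at a time with limma 3.58.1 (R 4.3.3, empirical Bayes with trend) on log2(TPM + 1), over genes that averaged 1 TPM or more, as a two-sided test with Benjamini-Hochberg adjustment over all genes tested and a threshold of 0.05. Single network genes also had an exact two-sided permutation test of the difference of mean log2 values (70 groupings for 4 against 4, 35 for 3 against 4, smallest p 0.0286 in both). The fits were tested on simulated data. Means are given with SD, and fold values are ratios of mean TPM. The network genes and gene lists were chosen with earlier results of these data known. Every network and wider network gene is named, and of each other list any gene called and those with the 2 lowest and 2 highest differences (for Myc VD LZ against MBCs, the ends); a few of these genes are not reported here.

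The labels give the same mouse for 3 pairs of LZ and MBC libraries. Deviations from the group means within these pairs correlated at 0.00, 0.00 and -0.03, so the pairs did not deviate together. The fit with the mouse as a block was an alternative, beside another pseudocount, other filters, median-ratio rescaling, removal of ribosomal RNA, mitochondrial and immunoglobulin genes, no trend, 1 fit of all groups and leaving out each library.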

Additional observations from a re-analysis of the deposited data

Results flagged for a closer look

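Dixon's test was run in 20 groups of 4 libraries, which were 9 network genes on the log2(TPM + 1) scale (Mycn, at 0 throughout, was left out) and the log2 ratio of Myc to the summed MXD genes and Mnt, each in both LZ groups, and 1 value stood apart. Mxd3 in Myc VD LZ was at 6.68 TPM in mouse 8 against 18.08 to 20.16 TPM in mice 5, 6 and 7, a gap of 0.898 of the group's range on the log2(TPM + 1) scale and 0.846 in TPM (critical value 0.829). In TPM, Mxd1 in Myc VD LZ also passed that value, with mouse 6 at 5.77 TPM and a gap of 0.868 (0.800 on the log2 scale). Chance alone gives about 1 such value in 20 groups. The library of mouse 8 had the lowest sum of proliferation genes of the 8 LZ libraries (1345 TPM), the highest share of ribosomal RNA (61.3%) and the lowest sum of LZ and GC markers (714 TPM). Their part in its Mxd3 value was not tested. Without mouse 8 the Mxd3 difference between Myc VD LZ and Myc WT LZ was 0.64, and 0 network genes were called.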

How the results depend on the processing

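Directions and calls of network genes held under most settings, and the exceptions follow. Between Myc VD LZ and Myc WT LZ, no network gene was called under any of the 15 alternatives, while the count over all genes, 6 as reported, was 0 with a pseudocount of 0.1, with no filter, after median-ratio rescaling and with all 3 groups in 1 fit, 1 without ribosomal RNA, mitochondrial and immunoglobulin genes, and 15 with a filter of 5 TPM. Leaving out 1 library gave 0 to 254 genes, the highest without mouse 5. The difference of Max was 0.34 after median-ratio rescaling and 0.35 without ribosomal RNA, mitochondrial and immunoglobulin genes, and that of Zbtb17 was 0.037 and 0.017. Leaving out 1 library gave -0.17 to 0.11 for Max, -0.21 to 0.25 for Mxd1, -0.030 to 0.49 for Mlx and -0.45 to 0.20 for Zbtb17; the cause was not tested.

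Between MBCs and Myc WT LZ, 1219 genes were called as reported, 608 with no filter, and 248 in the fit that pairs libraries by mouse (replicate block), which called 0 network genes (Mxd3 -2.84, adjusted p = 0.133) and changed no other call among them. Leaving out 1 library gave 342 genes (without LZ mouse 2) to 2754 (without MBC mouse 4) and 0 to 3 network genes, with 0 without LZ mouse 2 or 3 and 3 without MBC mouse 3 or 4. The differences then ranged from -1.58 to 0.022 for Mxd1, from -0.23 to 1.08 for Mnt, from -0.97 to 0.63 for Mlx and from -0.38 to 0.70 for Zbtb17, which was -0.015 with a pseudocount of 0.1. Between MBCs and Myc VD LZ, 509 genes were called as reported, 202 with no filter (0 network genes), 284 with no trend and 1578 with all 3 groups in 1 fit (2 network genes). Leaving out 1 library gave 203 to 731 genes and 0 to 1 network genes, with -1.14 to 0.46 for Mlx and -0.16 to 0.93 for Zbtb17. The cause of these changes was not tested. The depth of the libraries is unknown.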
